A study of Canis lupus familiaris with 18 samples.

Results

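The genes described here were lower in bPAC cells under a low dose of light than in the dark, and stood near their dark level under a high dose. They are 43 of the 32220 gene IDs counted. Members were chosen by their mean CPM in the bPAC groups (counts scaled to a common total of gene reads), through L, the log2 of (mean CPM in light + 1) over (mean CPM in the dark + 1). A member had L of -0.8 or less in low light and between -0.3 and 0.3 in high light, and a mean of at least 10 CPM in its highest group, which 1 member reached only in parental cells. The 38 IDs that the rule names for exclusion were left out, and none of them met these thresholds. Because the bPAC values chose the members, their course in bPAC cells is a description and carries no test. The parental libraries were not used to find L, and a test was made there. Its estimate of spread also drew on the bPAC libraries, so the test is not wholly free of the choice of members.

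The cells were MDCKI, an epithelial line from dog kidney, either parental or with bPAC, an adenylyl cyclase of bacterial origin that blue light switches on to produce cyclic AMP. Both lines were plated in medium with 0.5% serum and, from 16 h after plating, kept dark or lit at a low or a high dose for 2 h. The bPAC line had 3 dark, 4 low light and 3 high light libraries, and the parental line, which carries no bPAC, had 3 dark, 3 low light and 2 high light libraries. The sources used here do not say how the bPAC line was made, whether it is 1 clone, or whether libraries came from separate cultures. A p-value therefore reflects only how far these libraries differ, and that spread may be technical.

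Cyclic AMP binds the regulatory subunits of protein kinase A and frees its catalytic subunits, which phosphorylate proteins at membranes and in the nucleus, among them the transcription factor CREB. In kidney epithelium this pathway is known for controlling water and ion transport and for effects on cell growth and shape. The series is titled for a biphasic action of cyclic AMP on protein kinase A. Whether genes that move at a low dose and are back at a high dose bear on that action was not tested. Genes carry only Ensembl dog IDs in the files. The reference table holds 0 of the 43, so members are given by ID and no function is assigned to them. For the same reason the epithelial identity of the cells was not checked against markers.

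Each library held between 2638511 and 9610144 gene reads (median 4207160.5). All 43 members passed the filter on low counts, and 4 of them had fewer than 10 reads in at least 1 library. In the dark bPAC libraries the members ranged from 8.13 to 2277 CPM, with a median of 77.5 CPM, and 20 of them stood at 100 CPM or more. Together they took 0.793 ± 0.0558% of the gene reads in bPAC dark libraries (SD, n = 3), 0.401 ± 0.167% in low light (SD, n = 4) and 0.699 ± 0.158% in high light (SD, n = 3). In parental libraries they took 0.834 ± 0.0426% in the dark (SD, n = 3), 0.561 ± 0.0391% in low light (SD, n = 3) and 0.801 ± 0.0125% in high light (SD, n = 2). From bulk RNA, fewer cells that express a gene and less of its RNA per cell cannot be told apart.

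In bPAC cells low light L of the members ran from -1.74 to -0.81 with a median of -0.91, and 13 members were at -1 or below. High light L ran from -0.30 to 0.11 with a median of -0.16, and was below 0 in 34 members. In high light a member had regained between 57.9% and 116% of the CPM it lacked in low light, with a median of 80.0%. By mean CPM 9 members stood above their dark mean, a count that depends on the scale, as described below. The member nearest to the low light limit had L of -0.806, and the nearest gene outside it -0.791. At the lower end of the high light window these values were -0.299 and -0.318, and the nearest gene above the window stood at 0.323.

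**Figure D1:**
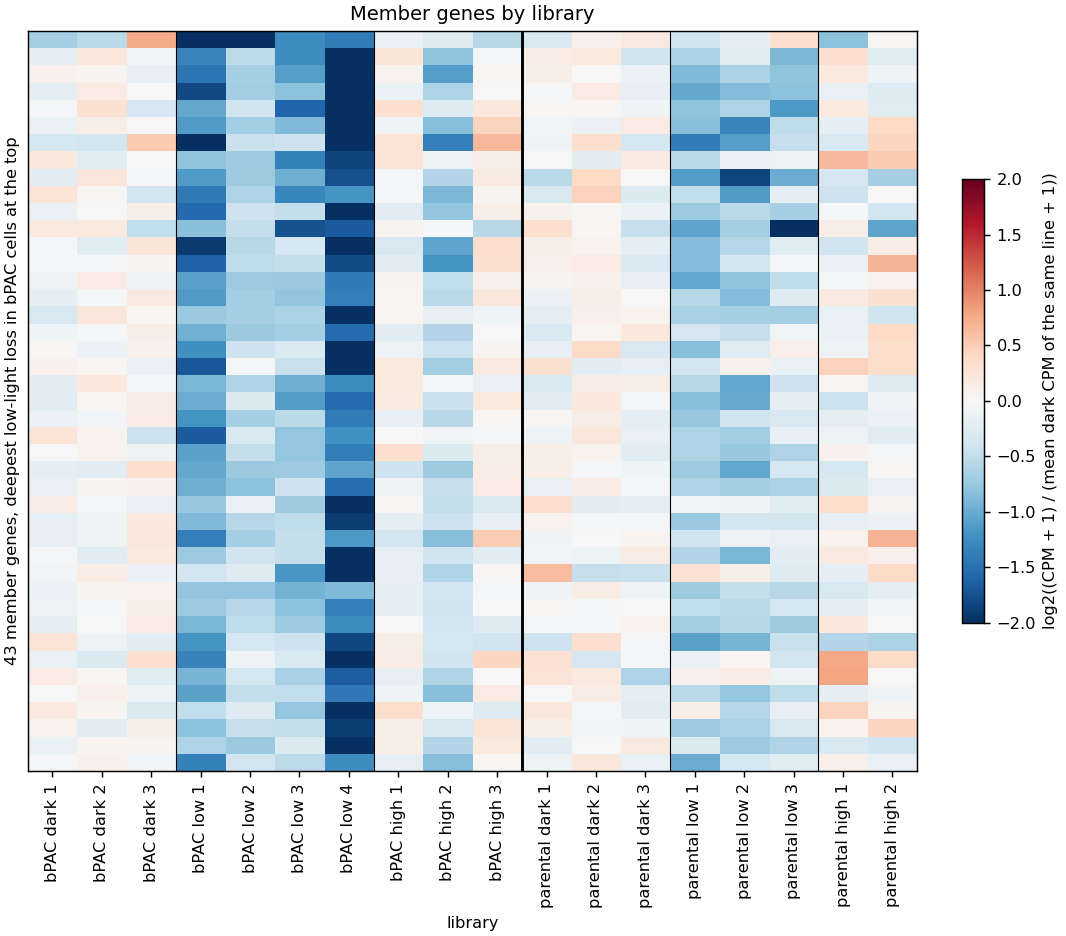
Each row is a member and each column a library, and colour gives log2 of (CPM + 1) over (mean dark CPM of the same line + 1), with values beyond 2 drawn at the end of the scale. All 43 members were below their dark mean in each of the 4 bPAC low light libraries, and 39 to 41 of them in each parental low light library. Library 4 of bPAC low light held the lowest value of its group for 36 members.

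The bPAC low light libraries differed widely in how low the members stood. Against the dark mean, the median member stood at -1.08, -0.53, -0.72 and -1.80 (log2 ratio) in bPAC low light libraries 1 to 4. In library 4 all 43 members were at -0.8 or below, in library 1 35 were, in library 3 15 and in library 2 only 2. Library 4 held the lowest value of the group for 36 members and library 2 the highest for 30. In each of these 4 libraries all 43 members lay below their dark mean, where 55.2% to 57.6% of the 5950 genes of at least 10 CPM did. Since the rule required a low mean over these libraries, nothing is read from this contrast.

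Among the high light libraries of bPAC cells the median member stood at -0.03, -0.50 and 0.05, so library 2 sat beside low light library 2 rather than beside the other high light libraries. In high light library 2 all 43 members were below their dark mean, against 23 and 14 in libraries 1 and 3, and 10 members were at -0.8 or below. For 38 members the 4 low light libraries lay below all 3 dark libraries, which was so for 29% of the 5950 genes. For 18 members, or 41.9%, they lay below all dark and all high light libraries, which was so for 2.29% of the 5950 genes. The rule used these libraries, so nothing is read from either share.

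Reads counted as ambiguous between genes varied with light and between libraries, in part along with the members. Such reads numbered 0.0581 and 0.0564 per 100 gene reads in bPAC low light libraries 1 and 4, against 0.0486 and 0.0475 in libraries 2 and 3. They numbered 0.0584 in bPAC high light library 2, against 0.0512 and 0.0437 in libraries 1 and 3, and ranged from 0.0352 to 0.0411 in the bPAC dark. In parental cells they ranged from 0.0329 to 0.0404 in the dark, 0.0528 to 0.0605 in low light and 0.0451 to 0.0515 in high light. Parental high light library 2 and bPAC high light library 1, with members near their dark level, exceeded bPAC low light libraries 2 and 3, and parental low light library 1, with the lowest members of its group, had the fewest of that group. The part of this difference in the results was not tested.

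**Figure D2:**
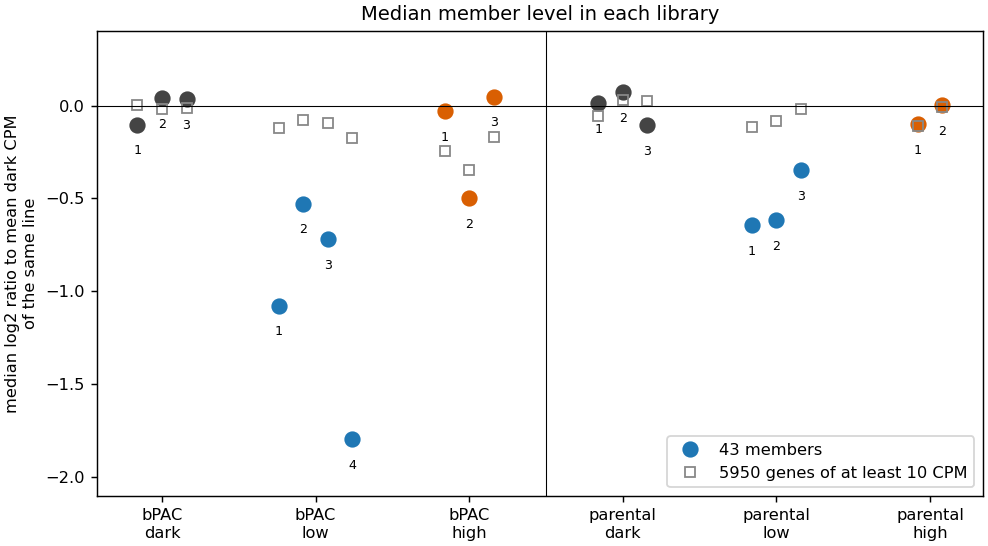
Filled points give, for each library, the median over the 43 members of log2 CPM relative to the mean of the dark libraries of the same line, and open squares the same over 5950 genes of at least 10 CPM; numbers are the replicates. Low light libraries lie lowest in both lines, from -1.80 to -0.53 in bPAC and from -0.64 to -0.35 in parental cells, and bPAC high light library 2 lies at -0.50.

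The scale of the libraries bears on the return at high light. CPM are shares of a total, and the 10 most abundant genes took 14.6 ± 0.515% of gene reads in the bPAC dark (SD, n = 3), 17.3 ± 1.29% in low light (SD, n = 4) and 19.1 ± 2.00% in high light (SD, n = 3). On plain CPM the 5950 genes had a median L of -0.09 in bPAC low light and -0.23 in high light. On CPM scaled by TMM, a method that aligns libraries on the bulk of genes, these medians were 0.02 and 0.07. The median L of the members in high light was -0.16 on plain CPM and 0.14 on the TMM scale, so its sign depends on the scale, while in low light it was -0.91 and -0.81. In the edgeR fit, which uses TMM, 42 of the 43 members were above 0 in bPAC high light against the dark. Their median log2 fold change was 0.13, and 51.9% of all genes tested were above 0. Whether the return at high light was incomplete thus depends on the scale for most members. The same rule applied to TMM-scaled CPM picks 100 genes, of which 19 are among the 43.

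Of the members whose low light libraries lay below every dark and high light library, ENSCAFG00000023317 and ENSCAFG00000032583 had the lowest L in low light. ENSCAFG00000023317 had 48.5, 53.1 and 131 CPM in dark, 15.7, 13.6, 31.9 and 28.8 CPM in low light and 70.9, 64.8 and 52.7 CPM in high light bPAC libraries. Its L was -1.74, the lowest of all members, and its dark libraries themselves ranged widely, with library 3 far above the other 2. In parental cells it had 51.4, 68.9 and 72.8 CPM in the dark, 48.5, 56.4 and 80.5 CPM in low light and 35.9 and 65.2 CPM in high light. These parental groups overlapped, and in parental low light its fitted log2 fold change was 0.00 (SE 0.38, edgeR adjusted p = 0.999).

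ENSCAFG00000032583 had 321, 411 and 370 CPM in dark, 105, 228, 207 and 56.9 CPM in low light and 335, 239 and 366 CPM in high light bPAC libraries. Its low light libraries 2 and 3 came close to high light library 2, while libraries 1 and 4 lay far below. In parental cells it stood at 464, 530 and 423 CPM in the dark, 231, 260 and 267 CPM in low light and 424 and 396 CPM in high light. All 3 parental low light libraries were below the other 5, with L of -0.90. The fitted log2 fold change of -0.84 (SE 0.32) did not pass (edgeR adjusted p = 0.097).

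The members with the highest counts were ENSCAFG00000010478 and ENSCAFG00000003408. ENSCAFG00000010478 had 2084, 2281 and 2467 CPM in dark, 771, 1717, 1640 and 151 CPM in low light and 1973, 1318 and 2480 CPM in high light bPAC libraries. Low light library 2 was 11.4-fold above low light library 4, and low light libraries 2 and 3 were above high light library 2. In parental cells it had 2508, 2379 and 2163 CPM in the dark, 1421, 1615 and 1489 CPM in low light and 2305 and 1816 CPM in high light. The parental low light libraries again lay below all others, with a fitted log2 fold change of -0.58 (SE 0.54, edgeR adjusted p = 0.528).

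ENSCAFG00000003408 was steadier, with 701, 743 and 818 CPM in dark, 456, 509, 426 and 292 CPM in low light and 656, 574 and 760 CPM in high light bPAC libraries. No low light library reached a dark or a high light library. In parental cells it had 897, 871 and 882 CPM in the dark, 625, 610 and 694 CPM in low light and 779 and 849 CPM in high light, where the low light libraries again lay below all others. The fitted log2 fold change in parental low light was -0.40 (SE 0.16, edgeR adjusted p = 0.107).

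**Figure D3:**
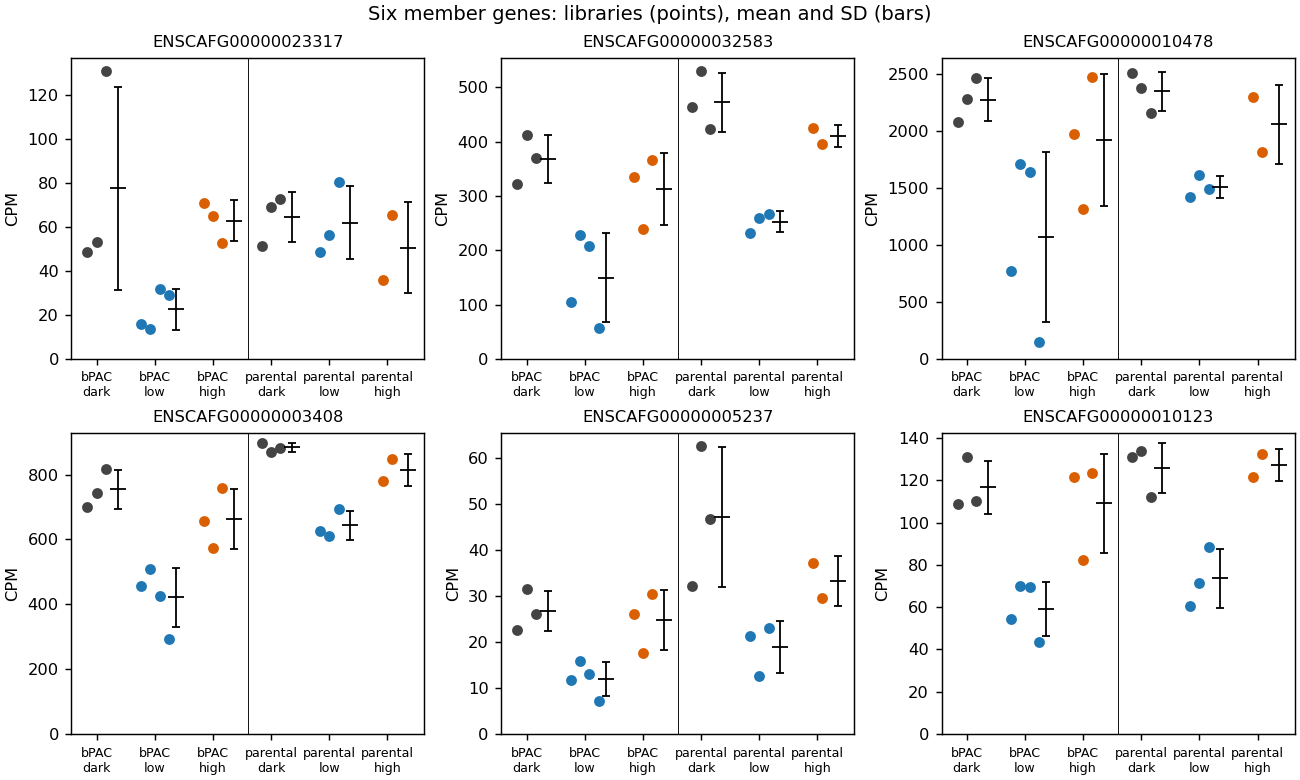
Points are libraries and bars the mean and SD of each group, in CPM, for 6 members. All but ENSCAFG00000023317 were lower in every parental low light library than in every parental dark library, and ENSCAFG00000010478 spread from 151 to 1717 CPM over the 4 bPAC low light libraries.

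In the parental line, which has no light-driven cyclase, the members were also lower in low light. L was below 0 in 41 of the 43 members, which was so for 54.7% of the 5950 genes of at least 10 CPM. The median L was -0.55 over the members and -0.06 over the 5950 genes. For 29 members, or 67.4%, all 3 parental low light libraries lay below all 3 dark libraries, and for none did they lie above them. Over the 5950 genes these shares were 19.6% and 18.2%. By library, the median member stood at -0.64, -0.62 and -0.35 in parental low light, against 0.01, 0.07 and -0.11 in the parental dark.

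Tested gene by gene with edgeR, 4 members, or 9.30%, fell in parental low light against the dark, where 4.68% of the 8530 genes tested were called lower. No member was called higher, against 6.76% of all genes tested. At an unadjusted p under 0.05, 17 members were lower and 0 higher, against 14.2% of all genes tested in each direction. DESeq2 called 7 members (16.3%) lower and 0 higher, against 6.8% and 7.5% of genes. The median fitted log2 fold change was -0.50 over the members and -0.01 over all genes tested. Without parental dark library 2 or parental low light library 2 no member was called lower, and without parental dark library 1 or parental low light library 1 a single member was. The share of all genes called lower also dropped, to 0.695% and 0.637% without dark or low light library 2 and 3.46% and 2.7% without dark or low light library 1. In a fit of the 8 parental libraries alone, 13 members, or 30.2%, were called lower, against 8.08% of the genes tested there. The biological coefficient of variation measures spread between libraries. In the fit of all 18, its median was 0.263 over the members and 0.217 over the 5950 genes. The part of this wider spread in the calls was not tested.

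ENSCAFG00000005237 had 21.3, 12.5 and 23.1 CPM in parental low light, against 32.2, 62.6 and 46.7 CPM in the parental dark. Every low light library was below every dark library, although the dark libraries themselves spread widely. Its log2 fold change was -1.24 (SE 0.29, edgeR adjusted p = 0.0114), and it was not called without parental dark library 2 (adjusted p = 0.0713) or parental low light library 2 (adjusted p = 0.0737), with adjusted p between 0.000896 and 0.0737 over 13 alternatives. Its L of -1.27 was below its bPAC value of -1.10. It was 1 of 2 members whose L was lower in parental than in bPAC cells.

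ENSCAFG00000010123 had 131, 134 and 112 CPM in the parental dark, 60.6, 71.6 and 88.6 CPM in low light and 122 and 133 CPM in high light. The low light libraries were apart from all others, and the high light libraries lay within the range of the dark ones. The log2 fold change in low light was -0.72 (SE 0.19, edgeR adjusted p = 0.0200), and the call was lost without any of 4 of the parental dark and low light libraries. In bPAC cells it had 109, 131 and 110 CPM in the dark, 54.2, 70.0, 69.4 and 43.3 CPM in low light and 122, 82.3 and 124 CPM in high light.

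The other 2 members called lower, named after their values were seen, were ENSCAFG00000000100 and ENSCAFG00000013369. ENSCAFG00000000100 had 201, 179 and 197 CPM in parental low light, against 334, 320 and 260 CPM in the dark (log2 fold change -0.61, SE 0.19, edgeR adjusted p = 0.0476). ENSCAFG00000013369 had 59.8, 71.0 and 66.7 CPM in parental low light, against 94.5, 110 and 91.7 CPM in the dark (log2 fold change -0.52, SE 0.14, edgeR adjusted p = 0.0242). Neither gene overlapped between these groups, and leaving out parental dark library 1 or 2, or any parental low light library, ended either call, as did dropping the filter on low counts; that of ENSCAFG00000000100 was also lost without parental high light library 1 (adjusted p = 0.0548), with adjusted p between 0.0250 and 0.149 over 13 alternatives. In bPAC cells ENSCAFG00000013369 had 125, 141 and 143 CPM in the dark, 78.0, 78.7, 70.3 and 73.4 CPM in low light and 118, 104 and 133 CPM in high light. Its low light libraries were close to each other and it did not share the deep values of low light libraries 1 and 4 that most members had.

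The members with L above 0 in parental low light were ENSCAFG00000008575 and ENSCAFG00000000287. ENSCAFG00000008575 had 15.7, 16.3 and 13.6 CPM in parental low light, against 18.002, 16.9 and 9.19 CPM in the dark. ENSCAFG00000000287 had 13.9, 12.3 and 9.23 CPM in parental low light, against 17.9, 7.86 and 7.98 CPM in the dark. Both pairs of groups overlapped, with fitted log2 fold changes of 0.09 (SE 0.32, edgeR adjusted p = 0.881) and 0.07 (SE 0.46, edgeR adjusted p = 0.947), and the sign of each turned in some fits that left out 1 parental library. In all, 11 members lay within 0.3 of 0 by parental low light L, 26 between -0.8 and -0.3, and 6 at -0.8 or below. Those 6 were 14.0% of the members, where 10.3% of the 5950 genes were at -0.8 or below.

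**Figure D4:**
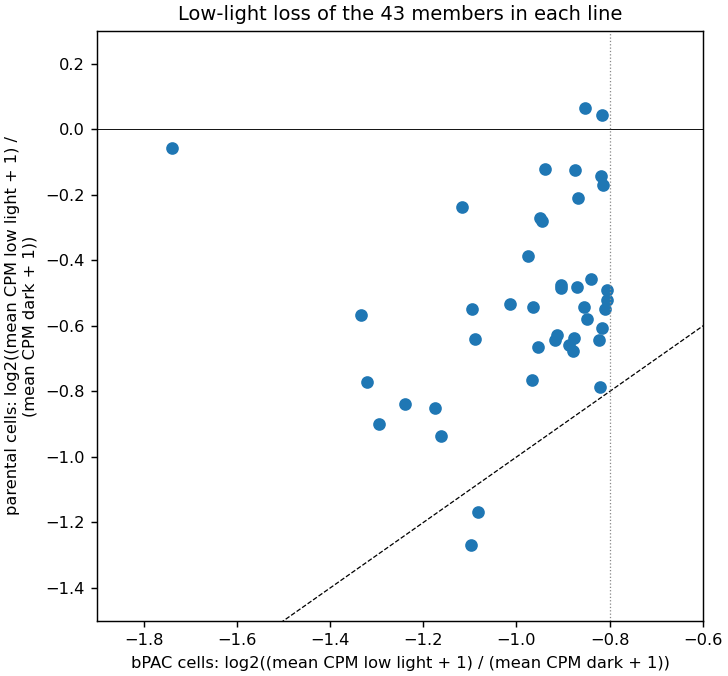
Each point is a member, with L in low light in bPAC cells on the horizontal axis and in parental cells on the vertical axis; the dashed line marks equal L and the dotted line the membership threshold of -0.8. Points above the dashed line, 41 of 43, have a higher L in parental than in bPAC cells, and the lowest bPAC value, -1.74, stands beside a parental value of -0.06.

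By size, the parental loss was smaller than the bPAC loss that chose the members: L was nearer to 0 or above it in parental cells for 41 members, with a median gap of 0.40. Since members were picked for a low bPAC value, this gap was not tested. Across the 43 members the low light L of the lines had a Spearman rho of 0.37 and a Pearson r of 0.21, given as a description over genes that share the same libraries and a truncated range of bPAC values. Between the lines, the members' median log2 ratio of bPAC over parental mean CPM (with 1 added to each) was -0.11 in the dark, -0.50 in low light and -0.18 in high light, beside -0.05, -0.13 and -0.29 over the 5950 genes. In low light 37 members were lower in bPAC than in parental cells by their means, and for 11 (25.6%, against 14.3% of the 5950 genes) all bPAC libraries lay below all parental ones. The rule chose genes with low bPAC means in low light, so nothing is read from these low light values.

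In parental high light the members lay on both sides of the dark. L was below 0 in 22 members and above 0 in 21, with a median of -0.01, beside -0.03 over the 5950 genes. Of the 43 members 32, or 74.4%, were within 0.3 of 0, where 50.5% of the 5950 genes were. In edgeR's test 0 members were called higher in parental high light than in the dark, where 0.141% of genes tested were, and 0 lower, against 0.0352%. At an unadjusted p under 0.05, 1 member was higher and 0 lower, against 8.12% and 6.93% of genes tested. DESeq2 called 0 members, against 1.06% of genes higher and 0.528% lower. This comparison rests on 2 high light libraries.

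The members with the smallest p in parental high light were ENSCAFG00000029603 and ENSCAFG00000028991 on the higher side and ENSCAFG00000014720 and ENSCAFG00000005237 on the lower side. ENSCAFG00000029603 had 35.6 and 32.7 CPM in parental high light, against 22.6, 19.0 and 25.4 CPM in the dark, without overlap (log2 fold change 0.67, SE 0.28, edgeR adjusted p = 0.272). ENSCAFG00000028991 had 18.3 and 29.0 CPM in high light, against 16.6, 17.5 and 18.1 CPM in the dark (log2 fold change 0.49, SE 0.32, edgeR adjusted p = 0.478). ENSCAFG00000014720 had 10.3 and 9.99 CPM in high light, against 11.8, 20.6 and 15.7 CPM in the dark (log2 fold change -0.57, SE 0.39, edgeR adjusted p = 0.505). For ENSCAFG00000005237, whose high light libraries held 37.1 and 29.5 CPM, the log2 fold change was -0.41 (SE 0.32, edgeR adjusted p = 0.570).

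Between parental high and low light the fitted fold change was above 0 in 42 of 43 members, with a median log2 fold change of 0.53, beside 0.02 over all genes tested, of which 51.5% were above 0. In edgeR's test 0 members were called higher, against 0.0117% of genes tested, and 0 lower, against 0%. At an unadjusted p under 0.05, 11 members were higher and 0 lower, against 4.89% and 7.77% of genes tested. DESeq2 called 0 members, against 0.117% of genes higher and 0.387% lower. This comparison shares the 3 parental low light libraries with that of low light against the dark, and the 2 high light libraries with that of high light. Its values are therefore not independent of either difference.

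The smallest p belonged to ENSCAFG00000010123, with the values given above (log2 fold change 0.80, SE 0.21, edgeR adjusted p = 0.192). ENSCAFG00000018516 had 177 and 192 CPM in parental high light, against 104, 85.1 and 130 CPM in low light (log2 fold change 0.80, SE 0.21, edgeR adjusted p = 0.195). In the dark it stood at 143, 170 and 154 CPM, between the 2 lit groups. ENSCAFG00000023317 was the 1 member with a value below 0 (log2 fold change -0.30, SE 0.43, edgeR adjusted p = 0.803), and this sign turned without parental high light library 1.

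For 23 members, or 53.5%, every parental low light library lay below every parental dark and every parental high light library, which was so for 8.79% of the 5950 genes. When the membership rule itself was applied to the parental groups, 87 genes of at least 10 CPM met it. Of the 43 members 4 did, or 9.30%, against 1.46% of the 5950 genes. It was also so for 6.06% of the 1139 genes, described below, that were lower at both doses in bPAC cells. No test was made of these shares, since the members were chosen with results of these data known.

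Most genes with so low a low light L in bPAC cells were also lower in high light. Of 1186 genes of at least 10 CPM with low light L of -0.8 or less, 1139, or 96.0%, were below -0.3 in bPAC high light, 4 were above 0.3 and the 43 members, or 3.63%, lay between. For the 1139 genes median L in parental low light was -0.73, with quartiles of -1.11 and -0.44, and for the members -0.55, with quartiles of -0.66 and -0.33. L was below 0 in 95.1% of the 1139 genes and 95.3% of the members, nearly the same share. It was -0.8 or less in 44.6% of the 1139 genes and 14.0% of the members. In parental high light the 1139 genes had a median L of -0.37, with quartiles of -0.74 and -0.07, and the members -0.01, with quartiles of -0.19 and 0.15. Within 0.3 of the dark level were 74.4% of the members and 37.7% of the 1139 genes. These are descriptions of 2 lists of unequal size and level, and the difference was not tested.

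**Figure D5:**
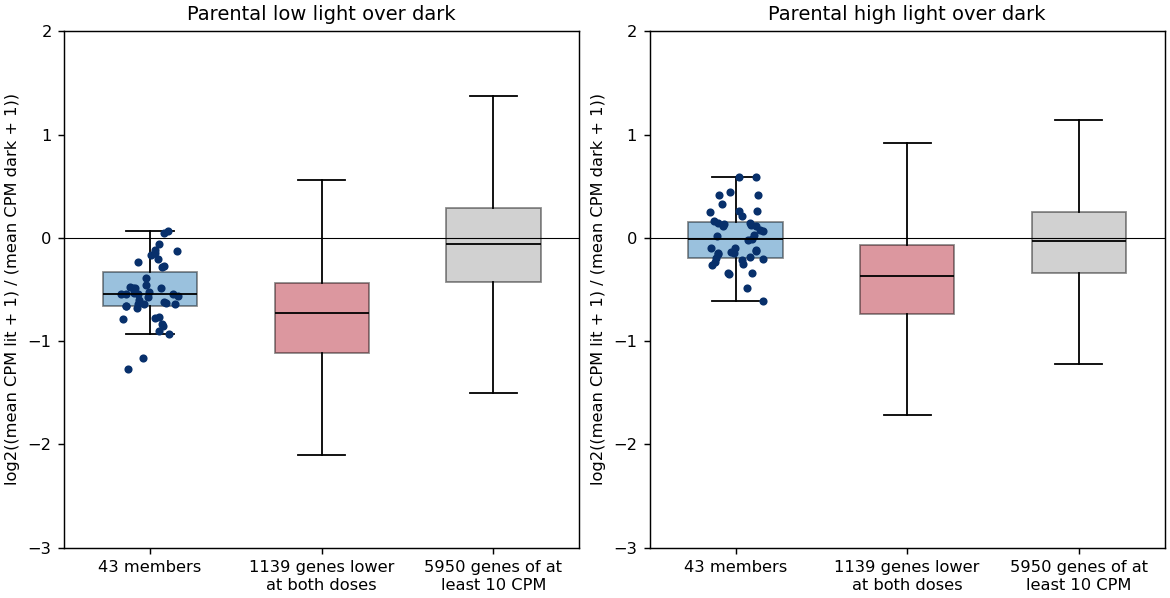
Boxes give the median and quartiles of L in parental cells, with whiskers to the farthest value within 1.5 box lengths, for the 43 members (also drawn as points), the 1139 genes lower at both doses in bPAC cells and all 5950 genes of at least 10 CPM. Medians are -0.55, -0.73 and -0.06 in low light and -0.01, -0.37 and -0.03 in high light.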

How the data were processed

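Expression was measured in 18 libraries, made per the labels' protocols from RNA of Lexogen's SPLIT kit with QuantSeq 3' FWD, a method that reads the 3' ends of transcripts, so that a count does not scale with gene length. The authors deposited whole-number read counts per gene ID, not normalised, 1 table per library, and the submitters' processing notes name CanFam3.1. Which aligner, counter, strand setting and annotation were used is not given in these sources, so genes with near copies or overlapping neighbours are uncertain. The 5 rows without a gene were left out of library sizes. Reads outside genes made up 25.1% to 29.6% of a table and reads aligned to several places 37.5% to 44.4%.

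Levels are CPM, a count divided by the sum of the gene rows of its library, times 1000000. L is log2 of (mean CPM lit + 1) over (mean CPM dark + 1). All 18 libraries entered 1 edgeR 4.0.16 quasi-likelihood fit of 6 groups (R 4.3.3, TMM, filterByExpr at a minimum count of 10, robust estimation), with Benjamini-Hochberg adjustment over the 8530 genes tested at 0.05. SE was taken as |log2 fold change| over the root of edgeR's F. The script was tested on simulated counts. Alternatives were DESeq2 1.42.0 and its size factors, other filters, only parental libraries, leaving out libraries, and other settings of the membership rule.

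Named genes were the 2 members with the lowest L whose bPAC low light libraries lay below all dark and high light libraries, the 2 with the highest bPAC dark CPM, and the 2 with the smallest p per direction in each parental comparison. Members and rules were chosen with earlier results of these data known. The reference table held 0 of the 32220 IDs, so gene lists and cell type markers were not used.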

Additional observations from a re-analysis of the deposited data

How the results depend on the processing

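The number of members depended on the rule's scale and on single libraries. Against 43, the rule gave 100 genes on TMM-scaled CPM, 13 at a low light threshold of -1 and 26 with a high light window of 0.2. Leaving out 1 bPAC library gave between 17 (without low light library 4) and 106 (without high light library 2), with 83 and 73 without low light libraries 2 and 3. Without low light libraries 1 and 4, an alternative chosen after the data were seen like that of the next sentences, it was 11, of which 9 were among the 43. With members chosen anew under each of 18 such settings, the median parental low light L stayed between -0.77 and -0.47, and that in high light between -0.19 and 0.04. With the largest mean taken over bPAC groups only, 42 members remained.

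The count of members called lower in parental low light, 4, was 7 by DESeq2, 7 with a filter at a mean of 5 CPM and 13 with only parental libraries, where 6.8%, 6.38% and 8.08% of all genes tested were called lower. Leaving out 1 parental library gave 0 to 5 members and 0.637% to 6.66% of all genes. The other counts of calls were 0 in all 13 alternatives. The members' median log2 fold change lay between -0.59 and -0.49 in parental low light against dark, -0.05 and 0.09 in high light against dark, and 0.48 and 0.64 in high against low light. On leaving out 1 parental library, the log2 fold change in low light of ENSCAFG00000008575 ran from -0.18 (without dark replicate 3) to 0.32 and that of ENSCAFG00000000287 from -0.17 (without dark replicate 2 or 3) to 0.66, being -0.077 without low replicate 1. That of ENSCAFG00000023317 in high against low light ran from -0.73 to 0.034 (without high replicate 1). The cause of these changes was not tested. No paired analysis was possible because the labels give no replicate numbers shared between groups.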

Other observations

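In bPAC low light the members spread widely between libraries: the highest library exceeded the lowest by a median of 2.64-fold over the 43 members and 1.62-fold over the 5950 genes of at least 10 CPM. The rule used the means of these libraries, and a gene with 1 very low library meets it more easily, so nothing is read from this gap. In the parental libraries, which did not set L, the same ratio had a median of 1.46-fold over the members and 1.38-fold over the 5950 genes in low light, and 1.28-fold and 1.42-fold in the dark. The widest range within bPAC low light, 38.4-fold, belonged to ENSCAFG00000011286, a gene singled out after its values were seen.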
